A study of Arabidopsis thaliana with 34 samples.

Results

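The 4 DNA demethylase genes of Arabidopsis thaliana were examined with 3 kb on both sides of each gene: ROS1 (AT2G36490), DME (AT5G04560), DML2 (AT3G10010) and DML3 (AT4G34060). They were chosen by name and coordinates out of 27444 protein-coding genes on the 5 nuclear chromosomes, with earlier results of these data known. All peaks that overlapped their windows were taken. The 18 peak lists came from ChIP-seq of 9 combinations of antibody and genotype, with 2 biological replicates each. NRPE1 was precipitated from wild-type Col-0 (WT), from *h1* (the homozygous double mutant h1.1-1 h1.2-1) and from ZF108-DMS3, a homozygous transgenic line that carries DMS3-3xFLAG fused to an artificial zinc finger in otherwise wild-type Col-0. H1 was precipitated from WT, *nrpe1* (nrpe1-11) and ZF108-DMS3, where NRPE1 and H1 were taken from the same chromatin. H3K9me2 was precipitated from WT and *h1*, and SUVH1-3xFLAG, a transgene put into *h1*, with an anti-FLAG antibody. SUVH1 therefore has no list without the *h1* mutations here, and ZF108-DMS3 stands for 1 transgenic line. All material was pooled seedlings of 10 to 12 days according to the methods, while the sample labels name floral tissue. Of the 328993 nuclear peaks of all lists, 69 overlapped the 4 windows, with 23 at ROS1, 13 at DME, 20 at DML2 and 13 at DML3: 31 of NRPE1, 33 of H1, 5 of SUVH1-3xFLAG and 0 of H3K9me2.

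DNA glycosylases of this family cut 5-methylcytosine out of DNA, and base excision repair then fills the gap with unmethylated cytosine. ROS1 is the main demethylase of vegetative tissues and works against RNA-directed DNA methylation (RdDM) at many loci, DME acts mainly in the central cell and the vegetative nucleus of pollen, where it is needed for imprinting, and DML2 and DML3 act beside ROS1. ROS1 is known to need RdDM at its own promoter for full expression, an arrangement that has been called a methylation sensor. NRPE1 is the largest subunit of Pol V, the polymerase whose transcripts guide the methyltransferase in RdDM. DMS3 belongs to the complex that brings Pol V to chromatin, H1 is the linker histone, H3K9me2 marks silent heterochromatin, and SUVH1 binds methylated DNA and promotes transcription of nearby genes.

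In the TAIR10 coordinates of the lists, ROS1 lay on the minus strand of chromosome 2 (15307907 to 15314807), DME on the plus strand of chromosome 5 (1309099 to 1318520), DML2 on the minus strand of chromosome 3 (3081735 to 3088550) and DML3 on the plus strand of chromosome 4 (16313366 to 16319426). Their annotated lengths ran from 6061 bp for DML3 to 9422 bp for DME, so that the windows ran from 12061 to 15422 bp. The base sequence under the leading NRPE1 peak of each gene is shown because the 3 genes with an NRPE1 peak in both WT libraries had it at different places, over the gene start of ROS1 and in the flanks behind DML2 and DML3. Each sequence is the RefSeq genome read on the strand of the gene, 200 bp around the midpoint of the WT summits. Capitals mark the bases between the first and the last summit of the WT and *h1* libraries that had the peak. For ROS1, 75 bases that belong to its untranslated leader were left out, and the 125 bases shown end directly before the annotated gene start.
ROS1 gene start, chr2:15314808-15314932, minus strand: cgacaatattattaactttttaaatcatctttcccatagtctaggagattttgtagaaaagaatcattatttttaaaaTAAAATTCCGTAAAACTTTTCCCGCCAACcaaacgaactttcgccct
DML2 downstream flank, chr3:3080469-3080668, minus strand: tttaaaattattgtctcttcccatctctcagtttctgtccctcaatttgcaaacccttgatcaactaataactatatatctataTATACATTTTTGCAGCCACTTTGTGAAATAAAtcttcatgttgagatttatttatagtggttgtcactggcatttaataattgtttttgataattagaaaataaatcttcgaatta
DML3 downstream flank, chr4:16320865-16321064, plus strand: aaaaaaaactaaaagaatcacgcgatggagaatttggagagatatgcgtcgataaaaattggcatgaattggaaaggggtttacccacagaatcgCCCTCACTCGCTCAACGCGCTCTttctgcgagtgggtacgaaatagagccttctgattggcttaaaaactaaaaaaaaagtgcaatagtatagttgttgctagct
DME coding exon, chr5:1316062-1316261, plus strand: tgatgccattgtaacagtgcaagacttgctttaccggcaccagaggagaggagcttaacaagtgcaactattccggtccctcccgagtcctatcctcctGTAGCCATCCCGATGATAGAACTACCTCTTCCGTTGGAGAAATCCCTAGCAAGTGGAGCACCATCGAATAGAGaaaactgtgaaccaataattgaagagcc

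The capitals cover 29 bp at ROS1, 32 bp at DML2 and 23 bp at DML3, in 4 libraries each, and 73 bp at DME, where 2 libraries had the peak. The cytosine counts below are for the whole stretches shown, 125 bp at ROS1 and 200 bp at the other genes. CG cytosines per 100 bp exceeded those of the window at ROS1 (8 against 4.496), DML3 (10 against 3.698) and DME (6.5 against 4.422). At DML2 they were fewer (1 against 4.011). The share of A and T lay above that of the window at ROS1 and DML2, and below it at DML3 and DME. Whether other stretches of the windows differ as much was not tested. The ROS1 stretch was 69.6% A and T, against 62.3% over its window, and held 10 cytosines in CG on both strands, 2 in CHG and 26 in CHH. The DML2 stretch was 72.5% A and T, against 64.5% over its window, and held 2 cytosines in CG, 8 in CHG and 45 in CHH. The DML3 stretch was 59.5% A and T, below the 67.0% of its window, and held 20 cytosines in CG, 6 in CHG and 55 in CHH. The DME stretch lay in a coding exon and was 51.5% A and T, below the 61.98% of its window. It held 13 cytosines in CG, 17 in CHG and 67 in CHH. The methylation of these cytosines was not analysed here.

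**Figure D1:**
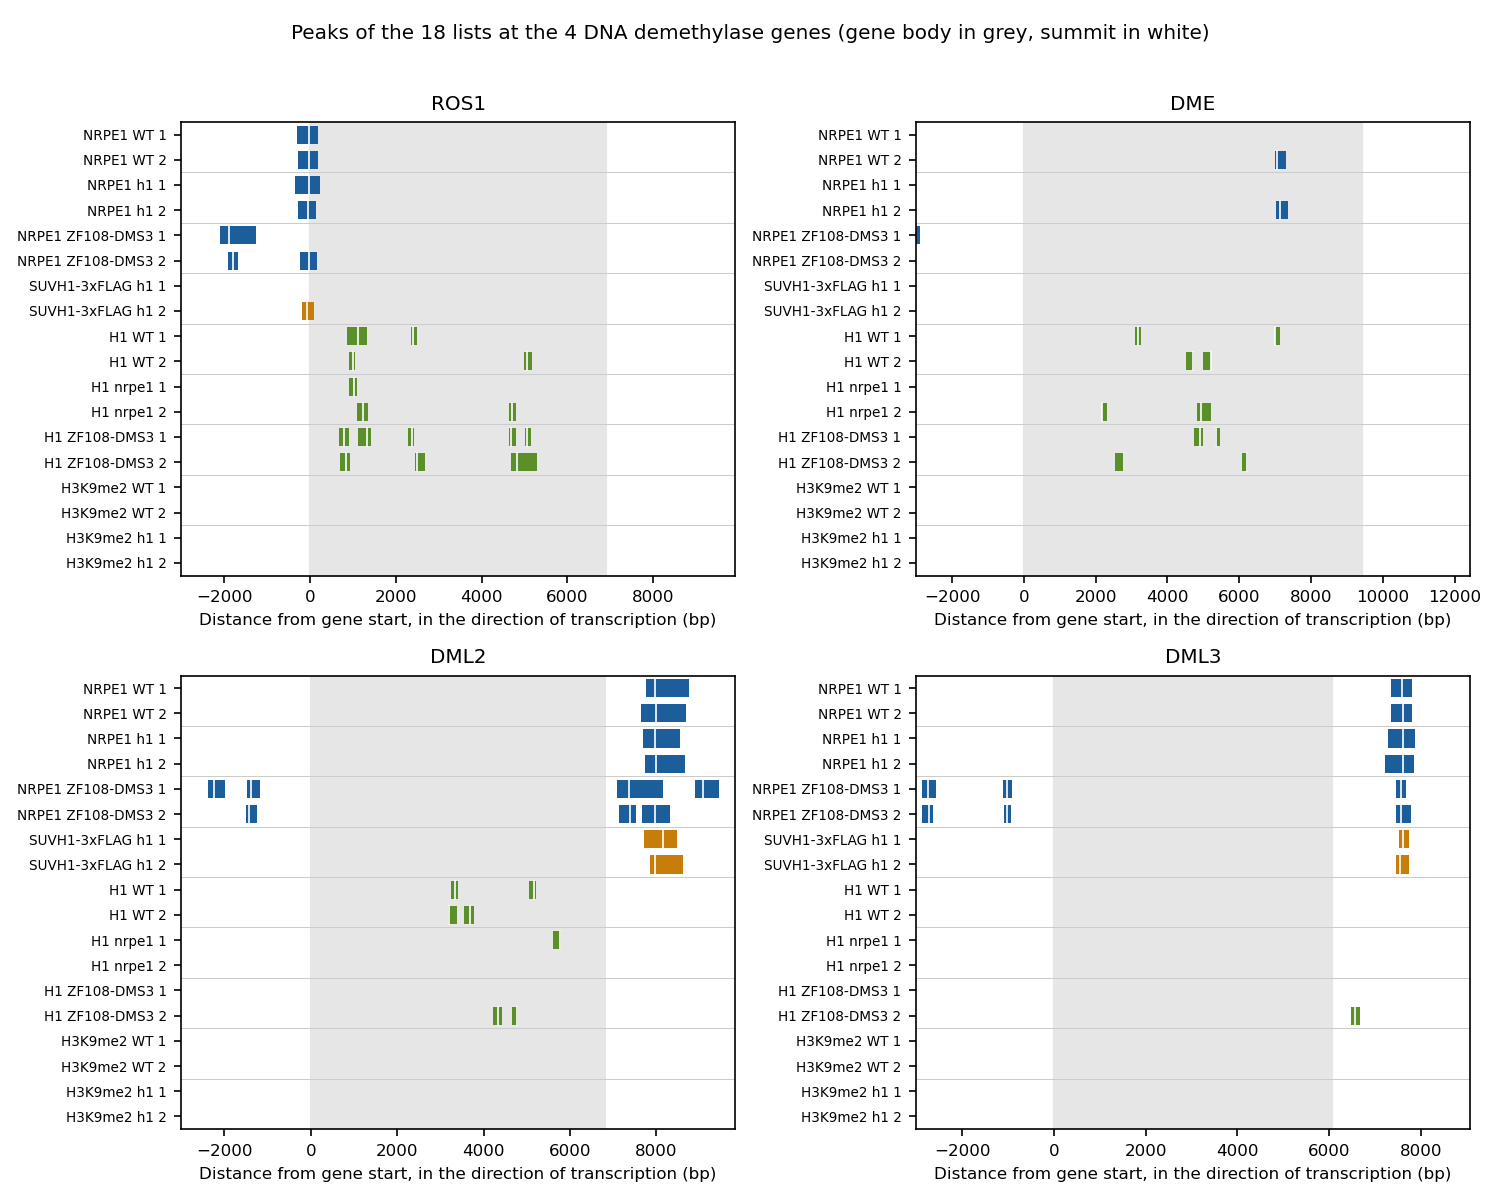
Peaks at each gene, with the distance from the gene start in bp on the x axis, 1 row for each of the 18 lists (antibody, genotype, replicate), bars for peaks, a white line at each summit and the gene body in grey. NRPE1 peaks of WT and *h1* sit at the start of ROS1 and behind DML2 and DML3, and in replicate 2 of each also inside DME. H1 peaks sit inside the gene bodies except for 1 behind DML3, and the rows of H3K9me2 are empty.

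NRPE1 occupied the start of ROS1 and the flanks behind DML2 and DML3 in WT, while DME carried a weak peak in its coding sequence in WT replicate 2 and none in replicate 1. With 3 of 4 windows holding an NRPE1 peak in both WT libraries, the background was 45.6% of all gene windows. The same 3 genes had a peak in both libraries of *h1* (47.7% of all gene windows) and of ZF108-DMS3 (54.1%). Of the 31 NRPE1 summits, 15 lay upstream of the demethylase gene, 14 behind it and 2 inside it, both of these in the DME exon. Of the 15 upstream summits, 3 lay inside a neighbouring gene. Summits of all 6 NRPE1 lists were counted, so the same place can count more than once. In WT and *h1*, every upstream summit belonged to the peak at the start of ROS1, and the other upstream summits came from ZF108-DMS3. No background over all gene windows is given for these places. No number of reads can be had from the lists, so the depth of each library is unknown, and the fold of a peak is the enrichment that the peak caller gave over its local background.

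At ROS1, the peak straddled the annotated gene start. It spanned 15314613 to 15315120 in WT replicate 1, with a fold enrichment of 8.22 and a summit 32 bp before the gene start. In WT replicate 2 it spanned 15314622 to 15315085, with a fold of 12.5 and a summit 19 bp before the start. These peaks ranked above 98.7% and 97.7% of the peaks in their lists by −log10 p, the highest ranks of any peak in the 4 windows. A summit within 100 bp of the gene start in both WT libraries was found at ROS1 and at none of the other 3 genes, and at 0.871% of all genes (239 genes).

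The ROS1 peak stayed at its place in *h1*. It measured 580 bp in *h1* replicate 1 (fold 8.38) and 426 bp in replicate 2 (fold 8.89), against 508 and 464 bp in WT. The 4 summits lay within 29 bp. The share of the window under NRPE1 peaks was 3.77% ± 0.241 (SD, n = 2) in WT and 3.90% ± 0.844 (SD, n = 2) in *h1*, and the libraries overlapped (3.94% and 3.60% for WT replicates 1 and 2, 4.50% and 3.30% for *h1*). The difference of 0.132 percentage points was less than the 1.19 points that separated the *h1* replicates, and it turned to −0.465 points without *h1* replicate 1 and to −0.0388 points without WT replicate 2. In rank, the ROS1 peak was lower in both *h1* libraries, at 92.5% and 90.0% of their lists, a difference of −6.97 points from WT (p = 0.333, two-sided exact permutation test). That is the smallest p that 2 libraries against 2 can give, so this test cannot reach 0.05 for any difference between genotypes in these lists.

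In ZF108-DMS3, NRPE1 at ROS1 had another layout. The peak at the gene start was missing from replicate 1 and measured 391 bp in replicate 2, with a fold of 4.90 and a rank of 88.2%. Farther upstream, both ZF108-DMS3 libraries had a peak that was missing from the WT and *h1* libraries. In replicate 1 this upstream peak was 840 bp wide, with a fold of 4.00, a summit 1898 bp before the gene start and a rank of 57.2%. In replicate 2 it was 231 bp wide, with a fold of 2.30, a summit 1785 bp before the start and a rank of 15.8%. The upstream peak brought the share of the window to 6.51% and 4.82%, above both WT libraries by 1.90 points on average (p = 0.333, two-sided exact permutation test), or by 1.05 points without ZF108-DMS3 replicate 1. With flanks of 1 kb, which leave the upstream peak out, ZF108-DMS3 lay below both WT libraries, by −3.26 points. The ZF108-DMS3 replicates shared 0.188 of the bases that either covered in this window, against 0.913 in WT and 0.734 in *h1*. Over the whole NRPE1 lists, the replicates shared 0.330 in ZF108-DMS3, 0.611 in WT and 0.806 in *h1*, so low agreement in ZF108-DMS3 was not limited to this window.

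At DML2, the NRPE1 peak lay behind the gene, between its annotated end and the next gene, EDA31 (AT3G10000). It spanned 3079801 to 3080802 in WT replicate 1 (fold 6.78, rank 93.8%) and 3079864 to 3080900 in WT replicate 2 (fold 11.1, rank 94.8%), with summits 1151 and 1182 bp past the gene end. At 1002 and 1037 bp these were the widest NRPE1 peaks of WT in the 4 windows. In *h1* the peak measured 868 and 927 bp, with folds of 7.08 and 9.77, and all 4 summits lay within 32 bp. WT libraries covered 7.82% and 8.09% of the window, *h1* libraries 6.77% and 7.23%, so both *h1* libraries lay below both WT libraries, by −0.952 points (p = 0.333, two-sided exact permutation test). The WT replicates were 0.273 points apart and the *h1* replicates 0.460 points, and with flanks of 1 kb, which hold little of the peak, the libraries overlapped (−0.119 points). In rank the peak was also lower in both *h1* libraries, at 84.5% and 88.7%, a difference of −7.67 points. Its −log10 p overlapped between the genotypes, at 53.6 and 98.1 for WT replicates 1 and 2, and 59.9 and 81.6 for *h1*.

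In ZF108-DMS3 the cover at DML2 was the highest of any antibody and gene in the 4 windows, and its replicates differed most. Replicate 1 covered 18.1% of the window with 4 peaks and replicate 2 covered 10.0% with 3 peaks. The mean difference of 6.11 points (p = 0.333, two-sided exact permutation test) was less than the 8.11 points that separated the ZF108-DMS3 libraries, and was 2.05 points without ZF108-DMS3 replicate 1 and 10.2 points without replicate 2. Both ZF108-DMS3 libraries had a summit nearer to the gene than WT and *h1*, 561 and 564 bp past its end. In replicate 1 this was the summit of a joined peak of 1079 bp with a fold of 9.61, and in replicate 2 it belonged to a peak of 374 bp with a fold of 3.68, beside a peak at the WT position with a fold of 7.11. Both libraries also had a peak before the gene, with summits 1382 and 1427 bp before the start and folds of 2.96 and 2.58. Replicate 1 alone had a peak with its summit 2235 bp before the start, between the tRNA gene AT3G10015 and the gene AT3G10020, and another 2254 bp past the end.

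At DML3, all 6 NRPE1 libraries had a peak behind the gene, between the lncRNA AT4G08885 and the noncoding RNA gene AT4G03365, whose start it reached in WT, in *h1* and in ZF108-DMS3 replicate 2. In WT it measured 464 and 461 bp with folds of 5.43 and 10.2, and the summit of replicate 1 lay 1534 bp past the gene end. In *h1* it measured 571 and 644 bp with folds of 10.0 and 14.2, and the 4 summits lay within 23 bp. The −log10 p reached 38.0 and 81.6 for the WT libraries, 100.1 and 137.6 for *h1*. WT libraries covered 3.85% and 3.82% of the window, *h1* libraries 4.73% and 5.34%, so both *h1* libraries lay above both WT libraries, by 1.20 points (p = 0.333, two-sided exact permutation test). The WT replicates were 0.0249 points apart and the *h1* replicates 0.605 points, and flanks of 1 kb hold none of the peak. DML3 ranked at 88.8% and 92.5% of the WT lists and at 93.2% and 95.7% of the *h1* lists, a difference of 3.77 points, the opposite direction from ROS1 and DML2. In rank the WT replicates were 3.64 points apart at DML3, against 1.01 at ROS1 and 1.07 at DML2, and the *h1* replicates were 2.45 points apart at DML3. The folds at DML3 overlapped between WT and *h1*. Leaving out each library in turn gave differences in rank from 1.95 to 5.59 points for DML3, from −8.25 to −5.69 points for ROS1 and from −9.77 to −5.58 points for DML2.

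In ZF108-DMS3 the DML3 peak was narrower, at 205 and 332 bp, with folds of 3.67 and 4.16 and ranks of 51.8% and 77.2%. Both ZF108-DMS3 libraries had further peaks before the gene. The nearer pair had summits 1013 and 1027 bp before the gene start, just past the end of CCoAOMT1 (AT4G34050), which encodes a methyltransferase of lignin synthesis. The farther pair had summits inside CCoAOMT1, 2750 and 2718 bp before the start of DML3, with folds of 3.53 and 2.04. The share of the window was 5.99% and 6.07%, above WT by 2.20 points (p = 0.333, two-sided exact permutation test), and the ZF108-DMS3 replicates were 0.0746 points apart. With flanks of 1 kb, which leave out the peak behind the gene and the farther pair, the difference was 0.974 points. Of the 20 differences between genotypes computed for the 4 genes, this was the largest in relation to the gaps between replicates.

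Within 3 kb, DME had no NRPE1 peak in both libraries of any genotype. WT replicate 2 had a peak of 288 bp in a coding exon, with a fold of 2.81 and a rank of 49.8%, and *h1* replicate 2 had one of 340 bp at the same place, with a fold of 3.43 and a rank of 51.4%. Replicate 1 of neither genotype had a peak there. WT libraries covered 0% and 1.87% of the window and *h1* libraries 0% and 2.20%, so the groups overlapped. In ZF108-DMS3, replicate 1 had 96 bp of a peak at the outer edge of the window, with its summit in the neighbouring gene AT5G04550, and replicate 2 had no peak. The differences from WT, 0.169 points in *h1* and −0.622 points in ZF108-DMS3, were less than the 1.87 points that separated the WT replicates. The direction turned in *h1* without WT replicate 1 (−0.765 points) or *h1* replicate 2 (−0.934 points), and in ZF108-DMS3 without WT replicate 2 (0.311 points). With flanks of 5 kb, all 4 genes had an NRPE1 peak in both libraries of each genotype, since at DME a peak had its summit 4708 to 4765 bp past the gene end in both WT and both *h1* libraries and in ZF108-DMS3 replicate 2. These summits lay inside the neighbouring gene SIR (AT5G04590). In ZF108-DMS3 replicate 1 the peak within 5 kb was the one in AT5G04550, with its summit 3096 bp before the gene start. With these flanks both ZF108-DMS3 libraries lay below both WT libraries at DME, by −2.93 points.

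**Figure D2:**
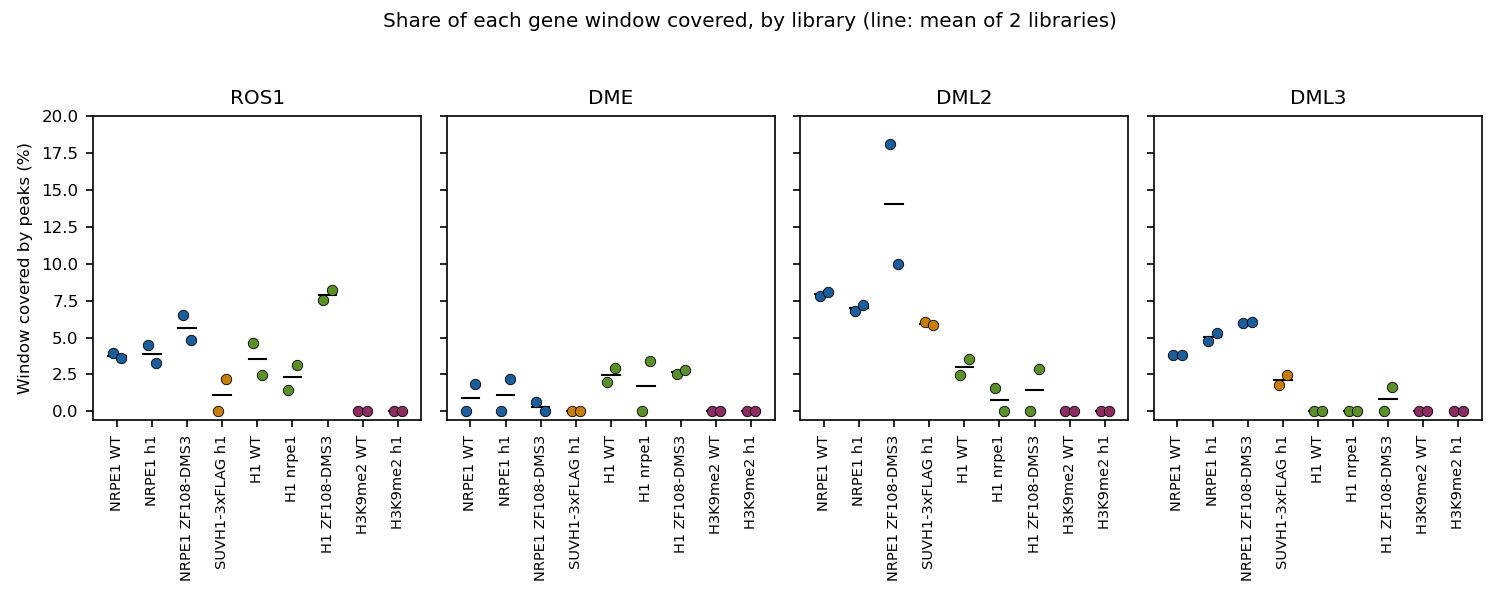
Share of each gene window covered by peaks, in percent on the y axis, with 1 dot for each library and a line at the mean of the 2 libraries of a group. NRPE1 cover of DML2 is highest in ZF108-DMS3 (18.1% and 10.0%), NRPE1 cover of DML3 is higher in *h1* than in WT, and H1 cover of ROS1 is highest in ZF108-DMS3 (7.55% and 8.24%).

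Over the 4 genes, 1 window (DML3) was covered more by NRPE1 in both *h1* libraries than in both WT libraries, as were 19.1% of all gene windows, and 1 (DML2) was covered less, as were 13.0%. In ZF108-DMS3, 3 windows (ROS1, DML2 and DML3) were covered more, as were 25.8% of all gene windows, and 0 were covered less, as were 31.4%. The *h1* and ZF108-DMS3 comparisons share the same 2 WT libraries. NRPE1 regions that both libraries of ZF108-DMS3 shared and that WT lacked lay in the windows of the same 3 genes and in 32.9% of all gene windows. A region with a peak in both *h1* libraries and none in WT was found at 0 of the 4 genes and in 6.39% of all gene windows, and the reverse at 0 of the 4 and in 3.49%. By mean share of the window in WT, DML2 (7.95%) came first, followed by DML3 (3.83%) and ROS1 (3.77%), whose libraries overlapped, and DME (0.934%). DML2 lay above the other 3 in both libraries of every genotype, and the median of all gene windows was 0% in WT, 0.739% in *h1* and 4.06% in ZF108-DMS3.

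Over the whole genome, 9127 NRPE1 regions near a protein-coding gene had a peak in all 4 libraries of WT and *h1*. Among them 37.1% ranked lower in both *h1* libraries, as ROS1 and DML2 did, and 33.4% ranked higher, as DML3 did. The median change over these regions was −0.296 points. The *h1* lists had about as many NRPE1 peaks as WT (23861 and 24961 against 25522 and 24915), which covered more of the genome, 22.7 and 21.2 Mb against 13.6 and 13.8 Mb. The ZF108-DMS3 lists had fewer NRPE1 peaks (18173 and 20358), which covered less of the genome, 7.20 and 7.53 Mb. Their median peak widths were 337 and 304 bp, against 383 and 393 bp in WT.

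**Figure D3:**
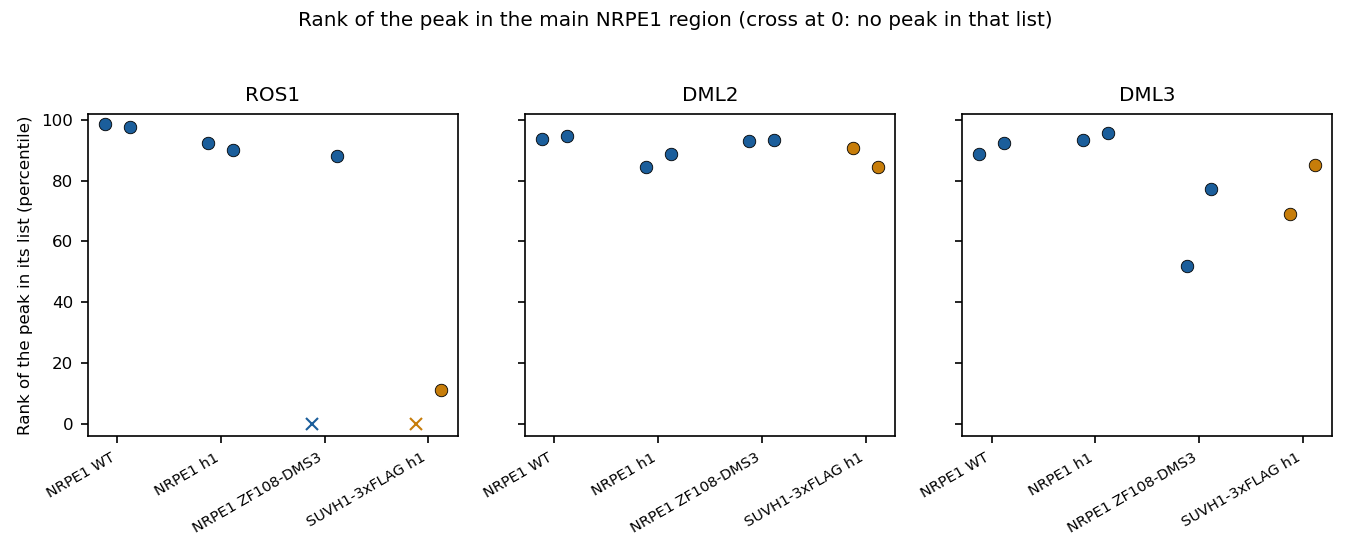
Rank of the strongest peak in the leading NRPE1 region of ROS1, DML2 and DML3, as the percentile of its −log10 p among the peaks of its own list on the y axis, for 2 libraries a group, with crosses at 0 for lists without a peak. ROS1 and DML2 rank lower in *h1* than in WT, and DML3 ranks higher. Among the NRPE1 lists, the DML3 peak ranks lower in ZF108-DMS3 (51.8% and 77.2%) than in WT and *h1*.

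SUVH1-3xFLAG, measured in *h1*, lay at the NRPE1 sites and nowhere else in the 4 windows. DML2 and DML3 had a peak in both SUVH1-3xFLAG libraries, as did 27.3% of all gene windows. At DML2 these peaks measured 775 and 748 bp with folds of 3.71 and 3.64 and ranks of 90.7% and 84.5%. At DML3 they measured 212 and 301 bp with folds of 2.53 and 3.53 and ranks of 69.1% and 85.1%. At ROS1, replicate 2 had a weak peak at the gene start, 283 bp wide with a fold of 1.85 and a rank of 11.1%, and replicate 1 had none. DME had no SUVH1-3xFLAG peak. All 5 peaks lay entirely within bases that an NRPE1 peak of *h1* covered, as did 74.2% of the SUVH1-3xFLAG peaks of both lists, although at ROS1 the ranks of NRPE1 and SUVH1-3xFLAG were far apart in the same mutant background. The SUVH1-3xFLAG replicates shared 0.683 of the covered bases at DML2 and 0.704 at DML3, against 0 at ROS1 and 0.438 over the whole lists.

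H1 peaks lay mostly inside the genes. Of 33 H1 summits, 29 lay in coding exons, 3 in introns and 1 behind DML3. The share of H1 summits inside genes over all gene windows was not computed. Gene bodies also make up much of the windows, such as 9422 of 15422 bp at DME. Summits of all 6 lists were counted, so the same place can count more than once. The peaks were weak, with folds from 1.61 to 2.56 and a median rank of 25.5%. With the lists of all genotypes pooled for each protein, peaks of H1 and NRPE1 shared 0 bp at ROS1, DML2 and DML3, and 119 bp in the DME exon. The pool includes NRPE1 in *h1* and H1 in *nrpe1*, so shared bases do not show both proteins in the same sample. At DME, the H1 peak came from WT replicate 1 and the NRPE1 peaks from WT replicate 2 and *h1* replicate 2. Of the 11357 gene windows with peaks of both proteins in any list, 57.9% had no base under both. In WT, a peak in both H1 libraries was found at ROS1, DME and DML2, as in 21.9% of all gene windows. In *nrpe1* this was so at ROS1 (20.9% of all gene windows), and in ZF108-DMS3 at ROS1 and DME (22.8%).

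At ROS1, a region 665 to 1421 bp behind the gene start held an H1 peak in all 6 libraries, as in 10.8% of all gene windows and at none of the other 3 genes. The region is the union of overlapping peaks, and the peaks of the *nrpe1* replicates within it, at 15313722 to 15313906 and 15313459 to 15313701, did not overlap each other. In H1 WT replicate 1 this peak was 461 bp wide with a fold of 2.52, and in WT replicate 2 it was 147 bp wide with a fold of 1.66 and a rank of 0.300%, near the bottom of its list. The H1 cover of the ROS1 window was 4.66% and 2.50% for WT, 1.43% and 3.15% for *nrpe1*, and 7.55% and 8.24% for ZF108-DMS3. The *nrpe1* libraries overlapped with WT. Both ZF108-DMS3 libraries lay above both WT libraries, by 4.32 points (p = 0.333, two-sided exact permutation test), against gaps of 2.16 points between the WT replicates and 0.690 points between those of ZF108-DMS3. The extra cover came from 5 and 3 peaks along the gene body, against 2 in each WT library. It held when each library was left out in turn, with differences from 3.24 to 5.40 points, but with peaks of −log10 q of at least 3 the groups overlapped (3.38 points, p = 0.667, same exact test). The H1 replicates shared 0.277 of the covered bases of ROS1 in ZF108-DMS3, 0.189 in WT and 0 in *nrpe1*. Over the whole H1 lists they shared more, 0.646 in ZF108-DMS3, 0.636 in WT and 0.676 in *nrpe1*.

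At DML2, the H1 cover was 2.49% and 3.53% for WT, 1.58% and 0% for *nrpe1*, and 0% and 2.89% for ZF108-DMS3. Both *nrpe1* libraries lay below both WT libraries, by −2.22 points (p = 0.333, two-sided exact permutation test), and this rested on 4 peaks in WT and 1 in *nrpe1*. The difference was −1.43 points without *nrpe1* replicate 2 and −1.35 points with peaks of −log10 q of at least 3. The ZF108-DMS3 libraries overlapped with those of WT. At DME, the cover was 1.96% and 2.94% for WT, 0% and 3.42% for *nrpe1*, and 2.54% and 2.83% for ZF108-DMS3, so the genotypes overlapped. The 2 replicates of DME shared 0 bp of H1 in each genotype. DML3 had no H1 peak in WT or *nrpe1*, and in ZF108-DMS3 replicate 2 had a peak of 201 bp behind the gene, with a fold of 1.96.

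Over the 4 genes, 0 windows were covered more by H1 in both *nrpe1* libraries than in both WT libraries (4.78% of all gene windows), and 1 (DML2) was covered less (5.70%). In ZF108-DMS3, 1 (ROS1) was covered more (6.01%) and 0 were covered less (4.72%). In ZF108-DMS3, where both proteins were precipitated from the same chromatin, ROS1 thus lacked the NRPE1 peak at its start in 1 library, had an NRPE1 peak upstream that WT lacked, and was covered more by H1 in its body. Whether these values are related was not tested.

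H3K9me2 had no peak in any of the 4 windows, in WT or in *h1*. A peak in both libraries was present in 5.03% of all gene windows in WT and 5.06% in *h1*. The cover was higher in both *h1* libraries than in both WT libraries in 0.711% of all gene windows and lower in 1.98%, and the 4 genes were in neither group.

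Besides the glycosylases, 14 genes of active demethylation and of the targeting of ROS1 were examined in the same way. Of these, 5 had an NRPE1 peak in both WT libraries, a share of the list below the 45.6% of all gene windows in WT. They were IDM3 and MET18, an alpha-crystallin domain protein of the ROS1 targeting complex and a factor of iron-sulphur cluster assembly that ROS1 needs, the endonucleases APE1L and ARP, and ARP6, a subunit of the SWR1 complex that deposits H2A.Z. In *h1*, 4 of the 14 were covered more than in both WT libraries, against 19.1% of all gene windows, and 0 less, against 13.0%. The widest of these differences in relative terms was at ARP, where NRPE1 covered 2.38% and 1.80% of the WT window and, for *h1*, 6.27% and 6.11%. At IDM3 the WT cover was 11.1% and 12.9% and the *h1* cover 15.8% and 15.0%, and at APE1L the WT cover was 9.40% and 9.82% and the *h1* cover 10.5% for each library. ARP6 was the most covered gene of the list, at 24.1% and 31.8% for WT, 35.7% and 34.2% for *h1*. MET18 overlapped, at 11.2% and 10.7% for WT, 10.6% and 11.0% for *h1*. In ZF108-DMS3, 6 of the 14 were covered more (25.8% of all gene windows) and 3 less (31.4%). ARP6 alone of the 14 had an H3K9me2 peak in both WT libraries, as did 5.03% of all gene windows. H3K9me2 covered 89.6% and 100% of its window in WT. In *h1* the cover was lower, at 83.4% and 80.1%, as in 1.98% of all gene windows.

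**Figure D4:**
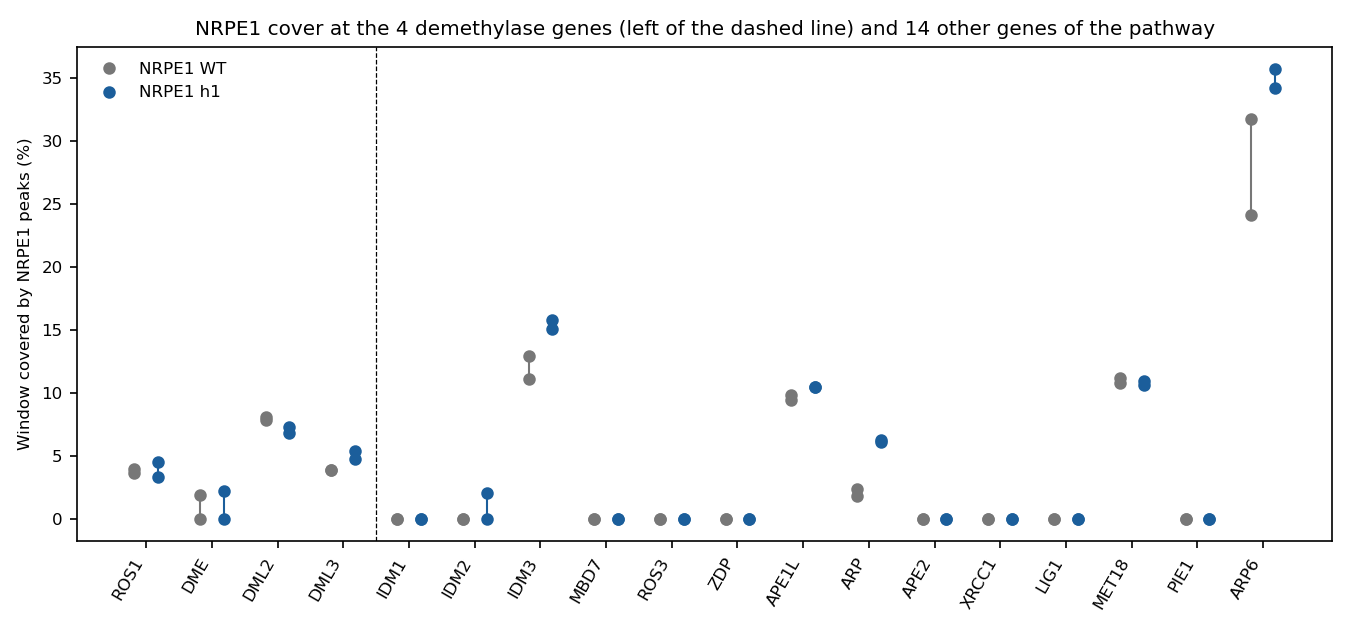
Share of the gene window covered by NRPE1 peaks, in percent on the y axis, for the 4 demethylase genes and 14 other genes of the pathway, with 2 dots for the WT libraries and 2 for the *h1* libraries, joined by a line. The *h1* dots lie above the WT dots at DML3, IDM3, APE1L, ARP and ARP6, below them at DML2, and 8 of the 14 other genes have no NRPE1 peak in either genotype.

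The genes whose share of covered window was most like each of the 4, by the mean absolute difference over the 18 lists, were taken as a description. For ROS1 they were SNL1 (AT3G01320), at 0.849 points, and MAP65-9 (AT5G62250), at 0.939 points. For DME they were AT5G10130, at 0.382 points, and TGA6 (AT3G12250), at 0.419 points, both without NRPE1 and with H1 in the window. For DML2 they were RST1 (AT3G27670), at 0.895 points, and GRF7 (AT5G53660), at 0.933 points, whose mean NRPE1 cover was 14.2% and 14.3% in ZF108-DMS3, near the 14.1% of DML2. For DML3 they were DOT2 (AT5G16780), at 0.309 points, and CYP72A11 (AT3G14650), at 0.353 points. H3K9me2 cover was 0% in the window of each of these 8 genes.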

How the data were processed

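The authors aligned ChIP-seq reads to TAIR10 with Bowtie2 2.1.0, kept uniquely mapping reads with no mismatch, removed duplicates with SAMtools and called peaks in each library with MACS2 2.1.1, and the control used for the calls is not given in the sources used here. The deposited lists hold, for each peak, the fold enrichment over local background as the authors' caller gave it. The −log10 p and −log10 q values were deposited as the authors' caller wrote them. The authors also deposited a score for each peak, which was left aside. The other 16 samples of the series were not analysed here.

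Genes were taken from RefSeq TAIR10.1, whose nuclear chromosome lengths equal those of TAIR10. For each of 27444 protein-coding genes with 3 kb flanks, the percent of bases under peaks was computed for each library (Python 3.11.15, NumPy 2.4.6), and the counting was tested on simulated data. Any overlap of at least 1 bp counted. Genotypes were compared by a two-sided exact permutation of libraries and by whether their libraries overlapped, with the share of all gene windows as background. A rank is the percent of peaks in the same list with a lower −log10 p. No 2 lists were copies of each other. The members and the 14 other genes were chosen with earlier results of these data known, and the named genes are those of the list with NRPE1 in both WT libraries or apart in *h1*. Alternatives were a −log10 q of at least 3, equal numbers of peaks, flanks of 1 or 5 kb, at least 0.5 of a peak inside the window, a replicate block and each library left out.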

Additional observations from a re-analysis of the deposited data

How the results depend on the processing

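Of the 20 differences between genotypes, none turned with flanks of 5 kb, and 1 each turned with flanks of 1 kb, with equal numbers of peaks and with a −log10 q of at least 3. These were NRPE1 at ROS1 in ZF108-DMS3 with flanks of 1 kb (−3.26 points), H1 at DME in *nrpe1* with equal numbers of peaks (0.0130 points) and H1 at DME in ZF108-DMS3 with a −log10 q of at least 3 (−0.979 points). With a library left out, 7 of the 60 values of the 15 differences that rest on a peak turned, and the other 5 differences had no peak in any library. The ranges were −0.465 to 0.729 points for NRPE1 at ROS1 in *h1*, −0.934 to 1.27 for NRPE1 at DME in *h1*, −1.56 to 0.311 for NRPE1 at DME in ZF108-DMS3, −2.45 to 0.973 for H1 at DME in *nrpe1* and −0.263 to 0.723 for H1 at DME in ZF108-DMS3. The 3 differences in rank kept their direction in all alternatives run. The alternatives for ranks, for the counts of genes covered more or less among the 4 and for the distance from the gene start were chosen after seeing the data.

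Counts over the 4 genes moved as follows. With flanks of 1 kb, 0 genes were covered more and 0 less by NRPE1 in *h1*, since the peaks of DML2 and DML3 lie mostly beyond 1 kb, and in ZF108-DMS3 2 were covered more in place of 3 and 1 (ROS1) less. With flanks of 5 kb, 1 (DME) was covered less by NRPE1 in ZF108-DMS3. With a −log10 q of at least 3, 0 were covered more by H1 in ZF108-DMS3. With a library left out, NRPE1 in *h1* covered 1 to 2 genes more and 1 to 2 less, NRPE1 in ZF108-DMS3 covered 0 to 1 less, H1 in *nrpe1* covered 0 to 1 more and 1 to 3 less, and H1 in ZF108-DMS3 covered 1 to 2 more and 0 to 2 less. Genes with an NRPE1 peak in both libraries went from 3 to 2 with flanks of 1 kb and to 4 with flanks of 5 kb in each genotype, and those with SUVH1-3xFLAG from 2 to 0 and to 3. Genes with H1 in both libraries went from 3 to 2 in WT and from 2 to 1 in ZF108-DMS3 with a −log10 q of at least 3, and from 1 to 2 in *nrpe1* with flanks of 5 kb.

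With the replicate block, the differences were the same by construction, such as 1.20 points for NRPE1 at DML3 in *h1*, the smallest possible p was 0.5 (exact test), and 1 gene (DML2) was covered less by H1 in ZF108-DMS3, against 0 without the block. The deviations of same-numbered libraries correlated at 0.0240 to 0.334 over gene windows in 5 comparisons of 2 pairs each, and nothing in the labels says that a number marks a shared batch.

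Over all genes, flanks of 1 kb moved the windows covered more from 5250 to 3423 (NRPE1 in *h1*), 195 to 108 (H3K9me2), 1312 to 857 (H1 in *nrpe1*) and 1649 to 1042 (H1 in ZF108-DMS3), and those covered less by H1 in ZF108-DMS3 from 1296 to 856. Windows with a peak in both libraries went from 14839 to 9281 (NRPE1 in ZF108-DMS3), 7488 to 4569 (SUVH1-3xFLAG), 6010 to 3677, 5724 to 3520 and 6251 to 3874 (H1 in WT, *nrpe1* and ZF108-DMS3) and 1388 to 890 (H3K9me2 in *h1*). With a library left out, 20 of 40 such counts of windows covered more or less moved by over 1.5 times, upward in each case, since 1 library then stood for a group. A summit within 50 bp of the gene start in both WT libraries was found at 82 genes, and within 200 bp at 746.

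The exact permutation test cannot reach 0.05 with 2 libraries a group, the lists hold no depth, and weak peaks such as those of H1 at these genes differ between replicates.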
